A study of Homo sapiens with 60 samples.

Results

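The 39 genes described here encode proteins that copy the genome in S phase, from the loading of the replicative helicase to the repackaging of new DNA. They were chosen by name as a list of DNA replication and S phase genes, and all 39 were found by symbol among the 60675 genes of the count table. All 39 also passed the filter on low counts that left 16484 genes for testing. HT29, a human colorectal adenocarcinoma cell line, had been exposed for 24 h to vehicle or to a hot-water extract used in Korean herbal medicine, and RNA was measured by RNA sequencing. Of the single herbs, citrus stands below for Citri Unshius Pericarpium, cimicifuga for Cimicifugae Rhizoma, bupleurum for Bupleuri Radix and aconite for Aconiti Lateralis Radix Preparata. Yijung-tang, Banhasasim-tang and Bojungikgi-tang were formulas made of several herbs. The sample labels give 500 µg/mL (high), 100 µg/mL (medium) and 20 µg/mL (low) for every extract. The series' design text adds that extracts too toxic for the top concentration were given at a lower one with its dilutions, without naming them, so the true concentration of an extract may differ from its label. The vehicle was 0.1% DMSO per the sample labels and 2% DMSO per the series' design text. Vehicle and 6 extracts had 3 libraries per group, and Bojungikgi-tang had 1 library per dose. HT29 is a single tumour line, so the results hold no information on normal colon cells.

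DNA is copied once per cell cycle. In G1 the origin recognition complex, with CDC6 and CDT1, loads the ring-shaped MCM helicase onto DNA, a step called licensing. At the start of S phase cyclin E and its kinase, with other kinases, turn the loaded ring into an active helicase by adding CDC45 and the GINS complex, and polymerases, the sliding clamp PCNA and its loader RFC then follow the fork. Many of these genes are transcribed by E2F factors as cells pass from G1 into S phase, so their RNA is widely used as a readout of proliferation.

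Library totals ran from 10.35 to 40.05 M estimated counts, with a median of 23.83 M. The sample codes begin differently for vehicle, citrus with cimicifuga, bupleurum with aconite, Yijung-tang with Banhasasim-tang, and Bojungikgi-tang. This first part of the code was read as a library set, although the labels do not say what it stands for and the titles name a single batch for all samples. Read so, a comparison with vehicle is also a comparison between sets, which cannot be told apart, whereas high against low dose stays within a set. Levels are CPM, counts scaled to the same library total for every sample. Of 12 colon epithelium markers, all 12 averaged at least 1 CPM, with a summed level of 10522 to 14280 CPM. The 6 fibroblast markers summed to 1.54 to 3 CPM and the 5 endothelial markers to 1.59 to 4.14 CPM. The 6 leukocyte markers summed to 1309 to 2265 CPM, nearly all of it LYZ (1307 to 2261 CPM), while the pan-leukocyte gene PTPRC did not exceed 0.128 CPM. Among the libraries, aconite high replicate 2 and Banhasasim-tang high replicate 2 stood apart: their deviations from their group means fell with the exon length of the gene (Spearman rho -0.31 and -0.42 across genes, which are not independent), and their ribosomal protein genes lay 0.50 and 0.40 log2 units above the group mean. Vehicle replicate 1 deviated the same way (rho -0.36), and bupleurum medium replicate 2 had the most RN7SL2, a small RNA gene, at 228 CPM. RN7SL2 also split the libraries: it stood at 4.94 to 9.04 CPM in vehicle and at 3.5 to 9.82 CPM in replicates 1 and 2 of citrus and cimicifuga. It stood at 66.4 to 114 CPM in replicate 3 of citrus and cimicifuga, 40.1 to 228 CPM with bupleurum and aconite and 55.2 to 130 CPM with Yijung-tang and Banhasasim-tang. The low values thus fall in vehicle and in part of the citrus and cimicifuga libraries. The main aconite and Banhasasim-tang results are given with and without replicate 2 of the high dose. The labels do not state that replicates came from separate cultures. The p-values therefore reflect spread among these libraries only, and it may be technical.

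In vehicle, the members differed widely in level per kilobase of exon. The clamp PCNA stood highest at 159 CPM per kb, followed by the helicase subunit MCM7 at 91.4 CPM per kb. FEN1, the nuclease that trims Okazaki fragments, followed at 65.8 CPM per kb. Thymidylate synthase TYMS stood at 61.2 CPM per kb and the large ribonucleotide reductase subunit RRM1 at 57.1 CPM per kb. At the other end were GINS4 at 1.57, cyclin E2 (CCNE2) at 2.82 and GINS3 at 3.88 CPM per kb. Across all 60 libraries the range of any member was modest: the highest value was at most 2.11 times the lowest (RFC4 and POLE2), and for MCM4 it was 1.19 times.

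The members as a group stood slightly higher at the high dose than at the low dose in 5 of the 6 extracts with replicates, cimicifuga being the exception, and single genes passed the test between doses only with aconite. Expressed as the median over the 39 genes of log2 CPM minus the vehicle mean, the 3 citrus high-dose libraries lay at 0.09, 0.08 and 0.10, and the 3 low-dose libraries at -0.04, -0.04 and -0.03. Banhasasim-tang gave 0.08, 0.14 and 0.08 at the high dose and 0.01, 0.01 and 0.00 at the low dose, and Yijung-tang gave 0.10, 0.08 and 0.10 against 0.04, 0.00 and -0.02. The high- and low-dose libraries did not overlap in these 3 extracts. Bupleurum did not overlap either (0.06, 0.08 and 0.08 against 0.01, 0.02 and 0.03). Aconite gave 0.09, 0.27 and 0.09 against 0.00, 0.02 and 0.08, with the 0.27 in replicate 2. In cimicifuga the values were mixed, at -0.02, 0.01 and 0.04 against 0.00, 0.01 and -0.01. In bulk RNA a larger share of cells in S phase and more RNA of these genes per cell cannot be told apart.

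**Figure D1:**
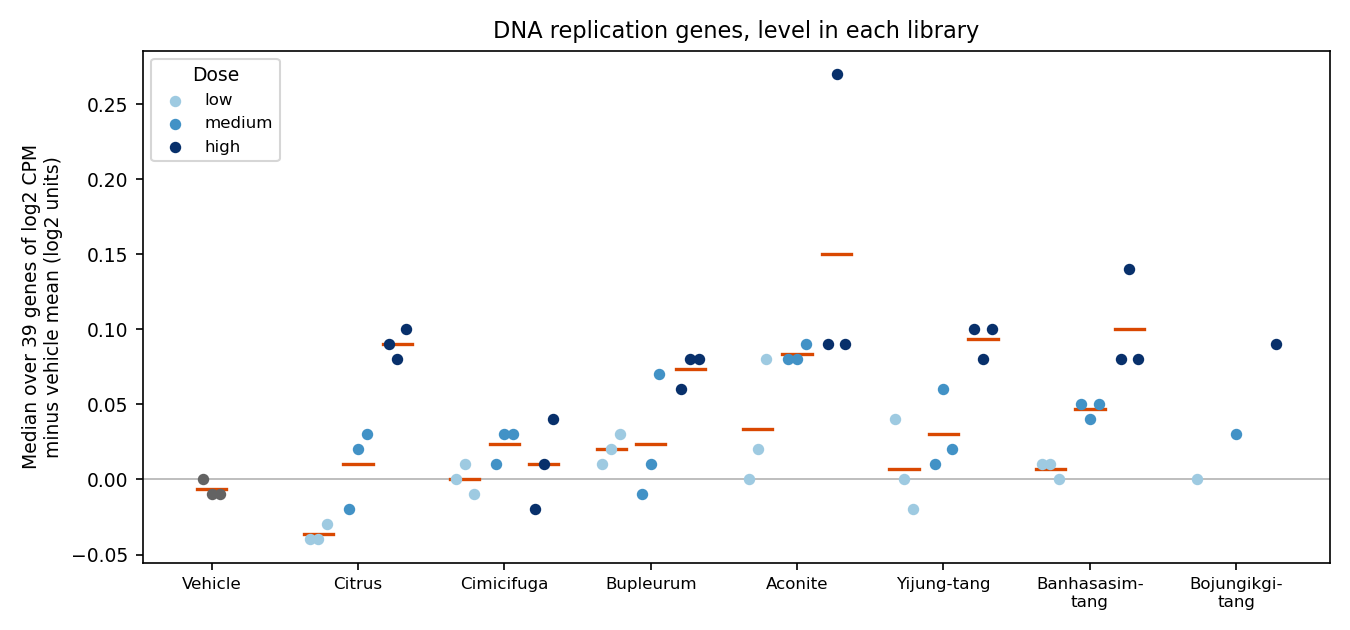
The level of the 39 replication genes in each of 60 libraries: each point is the median over the genes of log2 CPM minus the vehicle mean, by extract and dose, with orange bars for group means over 3 libraries. High-dose points lie above low-dose points in citrus, bupleurum, Yijung-tang and Banhasasim-tang, and 1 aconite library lies apart at 0.27.

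Fitted high over low fold changes were also counted gene by gene. With citrus the fold change lay above 0 for 39 of 39 members, where 49.5% of all genes tested lay above 0, and the members' median log2 fold change was 0.12 (range 0.04 to 0.23) against a median of all genes of 0.00. For Yijung-tang 36 of 39 lay above 0 (median 0.08), for Banhasasim-tang 33 (0.09), for aconite 32 (0.10), for bupleurum 31 (0.04) and for cimicifuga 23 (0.01), with 49.0 to 50.9% of all genes above 0 in these 5 comparisons. Without high-dose replicate 2, aconite had 25 of 39 above 0 with a median of 0.04, and Banhasasim-tang had 36 above 0 with a median of 0.07. These are small shifts: a median of 0.12 is 8.74% in level. Genes that share control by the cell cycle do not vary independently, so the counts are descriptions.

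With the edgeR quasi-likelihood test and Benjamini-Hochberg adjustment over all genes, 9 of 39 members rose with aconite between low and high dose (5.81% of all genes rose) and 0 fell (5.04% of all genes fell). In the other 5 extracts 0 members passed in either direction. With citrus 13 members had an unadjusted p under 0.05 and DESeq2 called 2 (0.0121% of all genes rose and 0.0546% fell under edgeR). With Banhasasim-tang 13 members had an unadjusted p under 0.05 and DESeq2 called 1 (0.091% rose and 0.14% fell). With Yijung-tang the counts were 7 and 0 (0.0849% rose and 0.0182% fell). With cimicifuga they were 2 and 0 (0.419% rose and 0.485% fell), and with bupleurum 2 and 0 (0.176% rose and 0.121% fell). These percentages count edgeR calls by adjusted p. The share of all genes called by DESeq2 is not given here for any comparison, so its counts of members cannot be set against one. An unadjusted p under 0.05 was found for 5.16% of all genes with citrus and 20.6% with Banhasasim-tang. The share was 5.82% with Yijung-tang, 6.69% with cimicifuga and 4.37% with bupleurum. Every one of the 3 high-dose libraries exceeded every low-dose library for 27 of 39 members with citrus, where 7.81% of all genes did so. That count was 12 with Yijung-tang (8.22% of all genes), 12 with Banhasasim-tang (7.24%), 10 with aconite (9.87%), 8 with bupleurum (7.77%) and 5 with cimicifuga (8.16%). The reverse, all high-dose libraries below all low-dose ones, occurred for 2 members with cimicifuga and for 0 in the other extracts. The share of all genes by this reverse rule is not given here, so these counts cannot be set against it. The plot of fold changes by gene and extract shows these shifts side by side.

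**Figure D2:**
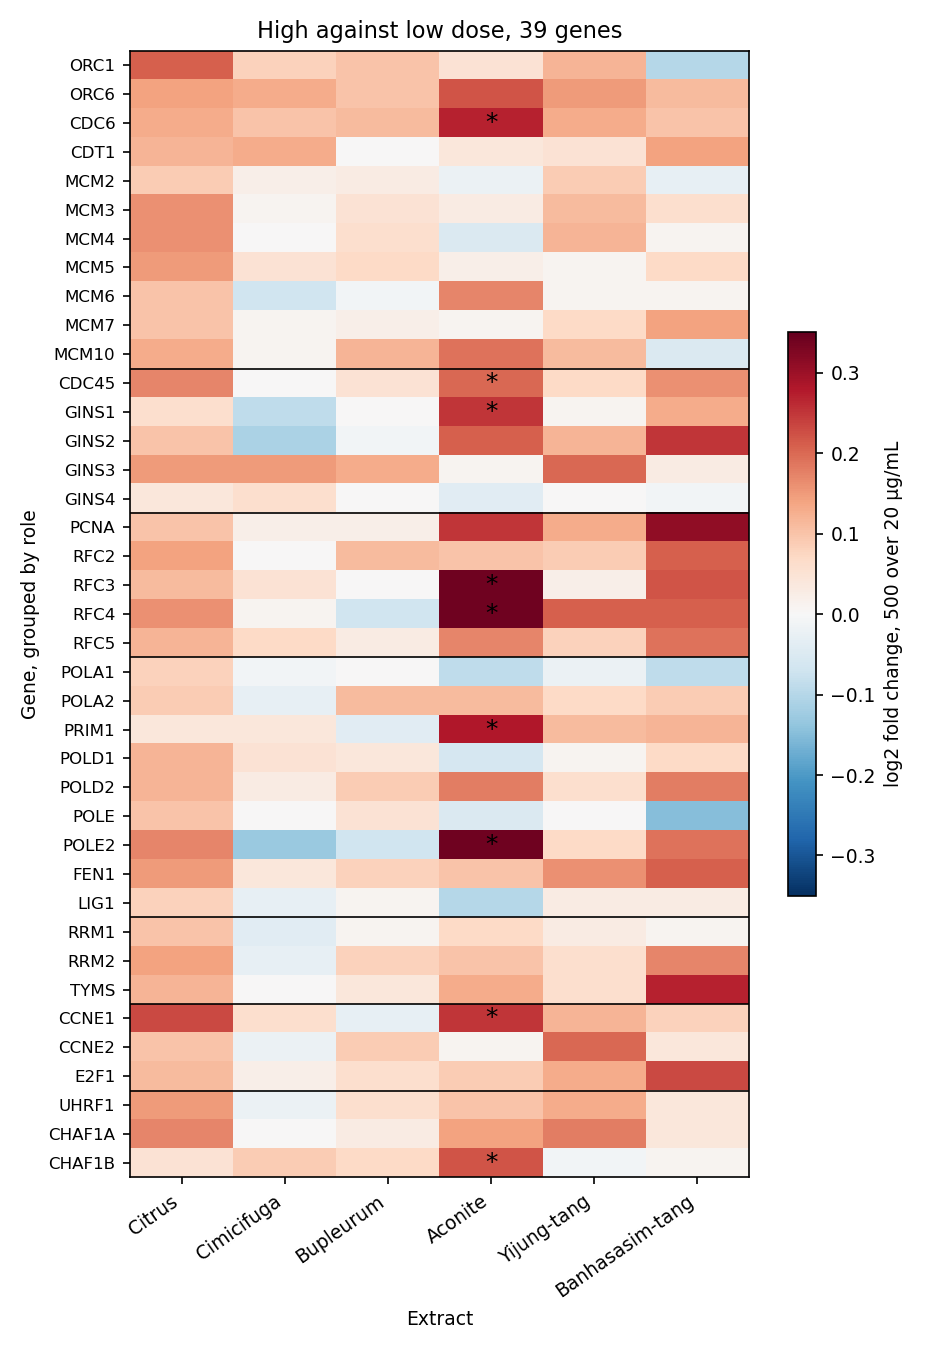
The log2 fold change of each of 39 genes between the high and the low dose, for 6 extracts with 3 libraries per dose; red is higher at the high dose, lines part the roles and asterisks mark an adjusted p under 0.05. All 9 asterisks are in the aconite column, and the citrus column is above 0 throughout.

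CDC6, the loader that recruits the MCM ring to origins, recurred most. Its high over low log2 fold change was above 0 in all 6 extracts, from 0.10 to 0.27, and its unadjusted p was under 0.05 in all 6, from 3.83e-07 to 0.0311. By that rule 10 of the 16484 genes tested rose and 9 fell. CDC6 was singled out after its values were seen. The 6 comparisons share no library, but they share 1 estimate of spread. With citrus, CDC6 stood at 87.2, 84.2 and 83.2 CPM at the high dose against 78.8, 75.0 and 78.8 CPM at the low dose. With cimicifuga it stood at 86.2, 81.8 and 83.2 against 78.0, 78.4 and 77.5 CPM, and with bupleurum at 83.7, 88.6 and 87.9 against 77.8, 80.6 and 81.5 CPM. High and low libraries did not overlap in those 3 extracts. With Yijung-tang (90.8, 84.2 and 80.6 against 82.7, 76.8 and 74.1 CPM) and Banhasasim-tang (82.5, 78.4 and 85.2 against 79.1, 76.1 and 73.5 CPM) they did overlap. With aconite CDC6 stood at 94.2, 103 and 94.1 CPM against 80.7, 77.5 and 81.7 CPM, a log2 fold change of 0.27 ± 0.05 (SE; adjusted p = 2.61e-05 with the edgeR quasi-likelihood test). Vehicle stood at 75.9, 78.2 and 80.4 CPM. CDC6 passed the adjusted test with aconite alone among the 6 extracts, and group means ran high over medium over low for CDC6 in all of them.

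**Figure D3:**
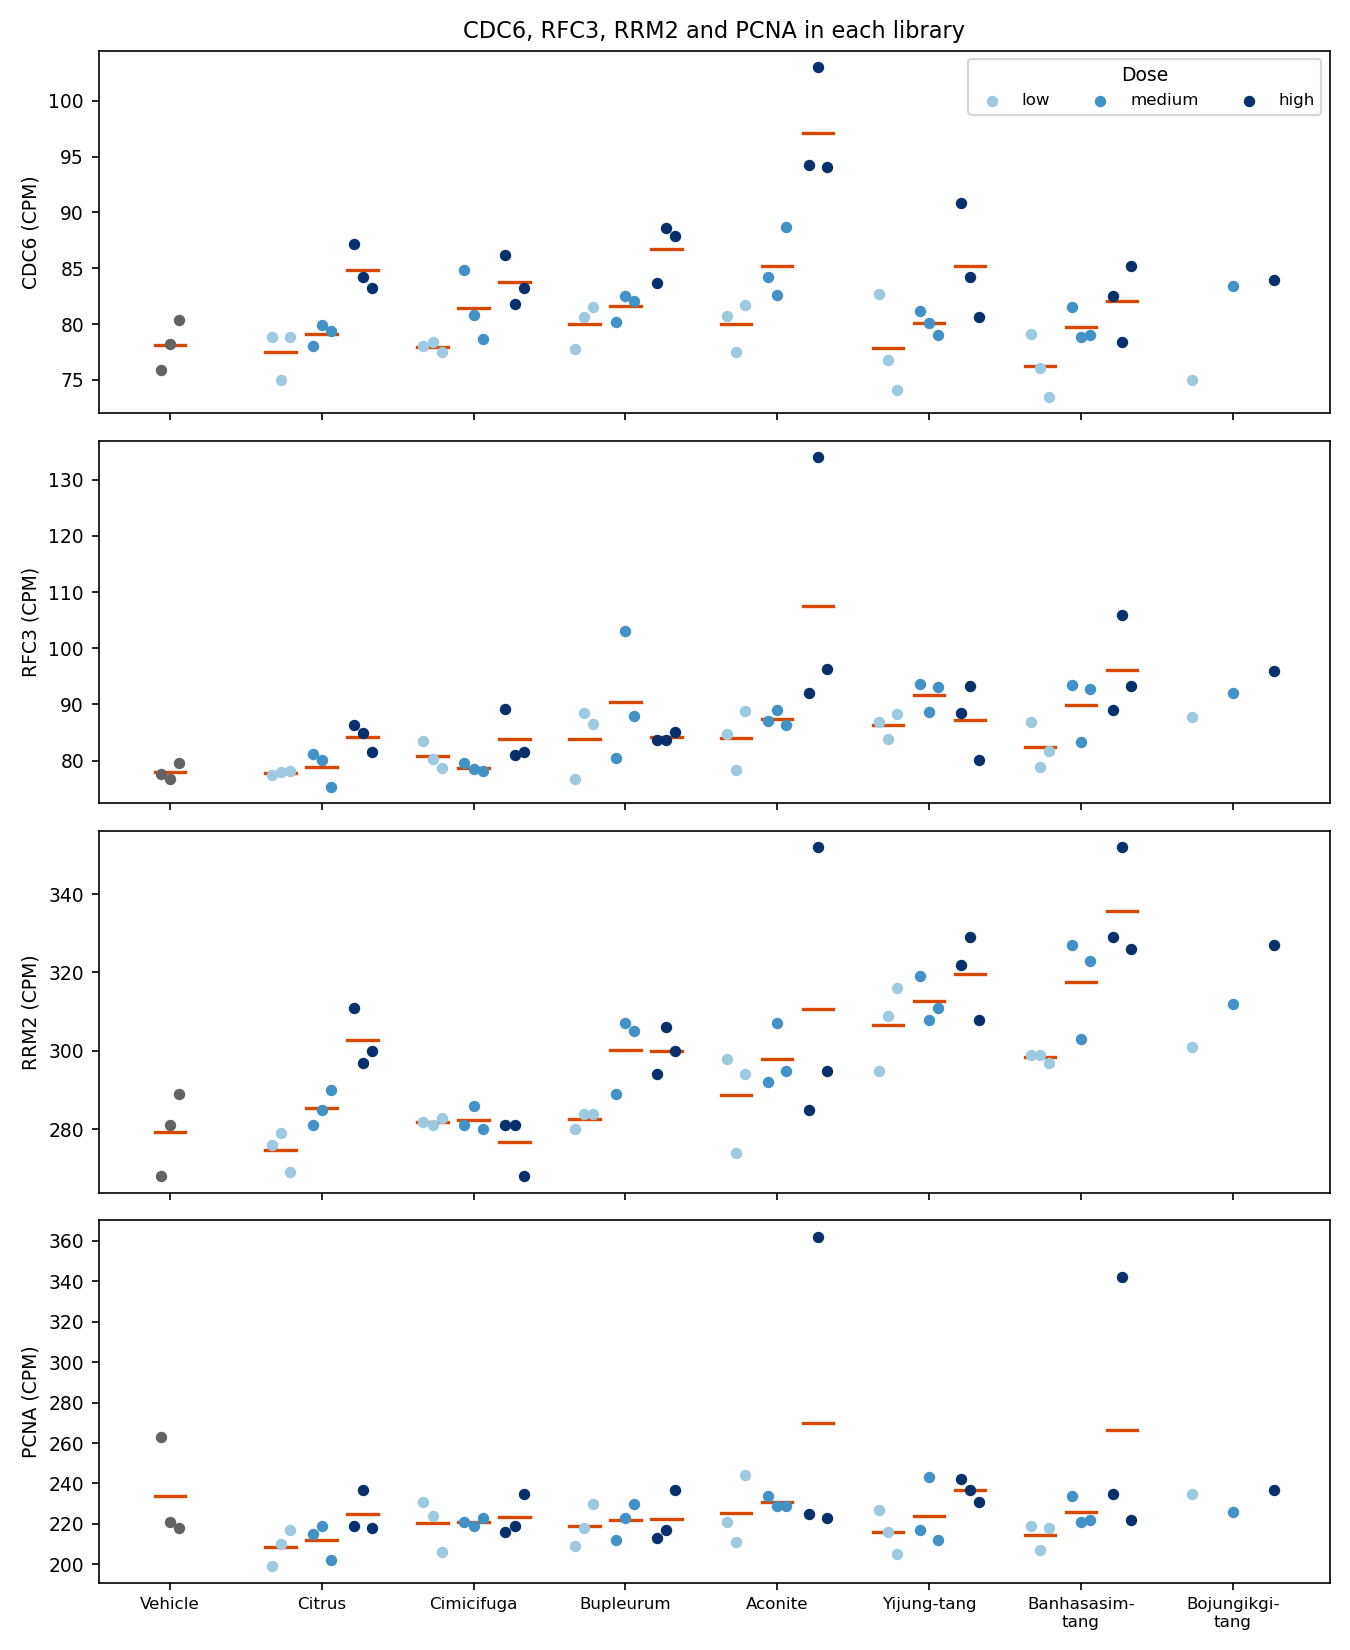
CPM of CDC6, RFC3, RRM2 and PCNA in each of 60 libraries by extract and dose, with orange bars for group means over 3 libraries; vertical axes do not start at 0. CDC6 is highest in the 3 aconite high-dose libraries (94.1 to 103 CPM), and PCNA is at 362 and 342 CPM in 1 library each of aconite and Banhasasim-tang.

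Among the other licensing factors, 11 members in all with CDC6, the shift was clearest with citrus. ORC1, the largest subunit of the origin recognition complex, stood at 38.2, 35.8 and 37.6 CPM at the citrus high dose against 31.9, 31.2 and 33.5 CPM at the low dose (log2 fold change 0.21 ± 0.06 SE, unadjusted p = 0.0025, adjusted p = 0.382 with edgeR). MCM4, a subunit of the helicase ring, stood at 349, 356 and 350 CPM against 314, 313 and 317 CPM (0.16 ± 0.04, adjusted p = 0.263 with edgeR). MCM3, another subunit of the ring, stood at 207, 204 and 205 CPM against 185, 184 and 182 CPM (0.16 ± 0.05, adjusted p = 0.309 with edgeR). None of these groups overlapped, yet none passed the adjusted test. For MCM4 and MCM3 the adjusted p of DESeq2 was 0.0351 and 0.0472, its 2 calls with citrus. MCM5, also of the ring, stood at 112, 113 and 122 CPM against 99.7, 102 and 111 CPM (0.15 ± 0.05), and MCM2 at 219, 213 and 221 CPM against 200, 198 and 213 CPM (0.09 ± 0.05). CDT1, the partner of CDC6 in loading, overlapped at 50.9, 54.5 and 62.3 CPM against 48.8, 53.2 and 51.7 CPM.

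The origin firing and fork genes moved likewise with citrus. CDC45, which joins the MCM ring in the active helicase, stood at 50.1, 51.4 and 52.7 CPM at the high dose and at 45.3, 43.4 and 47.8 CPM at the low dose. Cyclin E1 (CCNE1), which activates CDK2 at the entry into S phase, had the largest citrus fold change of the members, at 20.2, 22.7 and 20.8 CPM against 18.7, 17.7 and 17.7 CPM (log2 0.23 ± 0.07 SE, adjusted p = 0.289 with edgeR). UHRF1, which recruits the maintenance DNA methyltransferase behind the fork, stood at 106, 104 and 113 CPM against 95.4, 96.3 and 99.0 CPM (0.15 ± 0.04, adjusted p = 0.289 with edgeR). High and low libraries of these 3 genes did not overlap. RRM2, the small subunit of ribonucleotide reductase, stood at 311, 297 and 300 CPM against 276, 279 and 269 CPM (0.14 ± 0.05, adjusted p = 0.619 with edgeR). With the 4 libraries that stood apart left out of the fit, none of them a citrus library, 6 citrus members passed: ORC1 (adjusted p = 0.0163), MCM4 (0.0202), MCM3 (0.0204), RRM2 (0.0351), CCNE1 (0.0469) and UHRF1 (0.0469), where 0.303% of all genes rose. Those 4 libraries were picked from these same data, and the fold changes of the 6 genes stayed the same without them. With the citrus high- and low-dose groups fitted alone none of the 6 passed (adjusted p from 0.194 for MCM3 to 0.299 for RRM2 with edgeR). With a batch term that separates libraries of low and high RN7SL2, chosen after seeing the data, 0 citrus members passed (0.0121% of all genes rose), 39 of 39 lay above 0 and their median was 0.12. Group means ran high over medium over low for 33 of 39 members with citrus, where 22.1% of all genes did so.

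Cimicifuga, measured in the same library set as citrus, gave no such shift, but the difference between the extracts was not established for any gene. Citrus high over low minus cimicifuga high over low had a median of 0.11 over the members and lay above 0 for 34 of 39. Of these differences 0 passed with edgeR and 0 with DESeq2 (0.0243% of all genes passed edgeR with a higher and 0.091% with a lower citrus response). An unadjusted p under 0.05 was found for 5 members and for 4.23% of all genes. The smallest p belonged to UHRF1, with a difference of 0.17 (95% interval 0.05 to 0.29) and an adjusted p of 0.697 with edgeR. With cimicifuga UHRF1 stood at 92.8, 93.9 and 97.4 CPM at the high dose and 95.2, 97.4 and 95.7 CPM at the low dose, which overlap. RRM2 with cimicifuga stood at 281, 281 and 268 CPM against 282, 281 and 283 CPM.

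**Figure D4:**
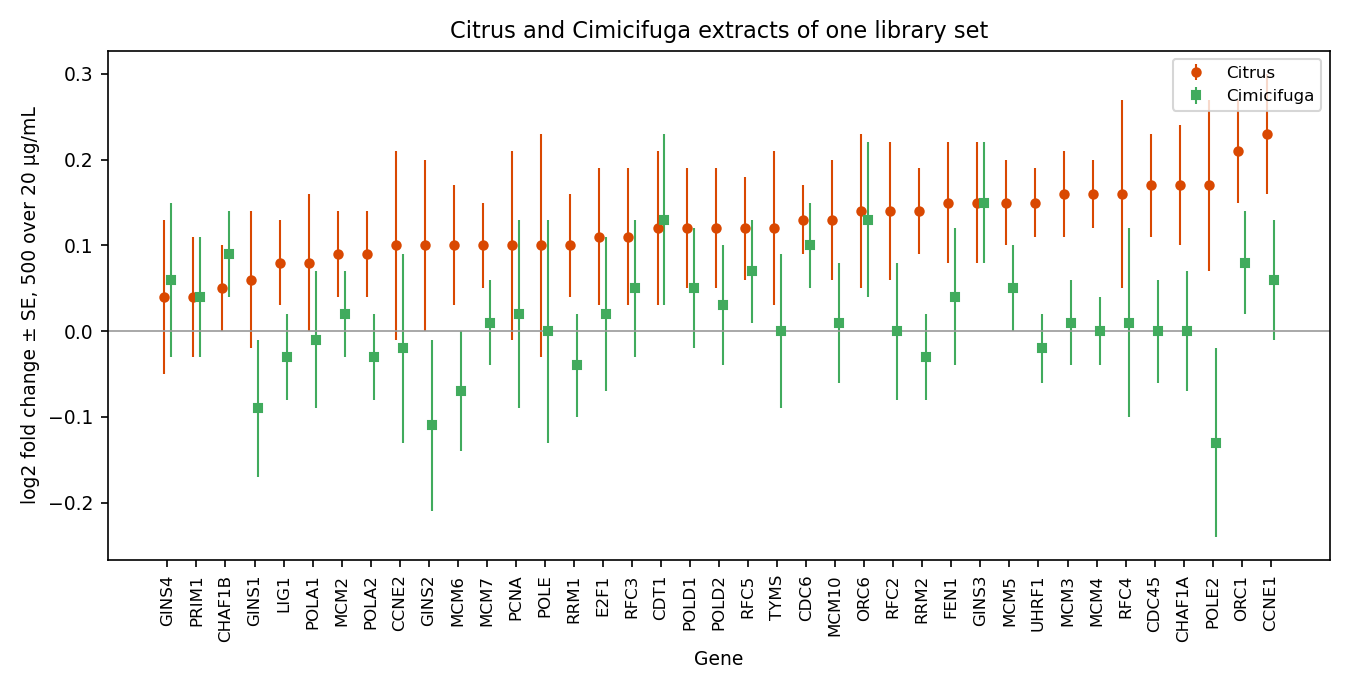
The log2 fold change between high and low dose with its standard error for 39 genes, ordered by the citrus value, for citrus (circles) and cimicifuga (squares), each from 3 libraries per dose. Citrus values run from 0.04 to 0.23 and cimicifuga values from -0.13 to 0.15, and the standard errors of many pairs touch.

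With aconite, 9 members rose between low and high dose, by 0.20 to 0.34 on the log2 scale. They comprise CDC6 (above), the helicase factors CDC45 and GINS1, the clamp loader subunits RFC3 and RFC4, the primase subunit PRIM1, the polymerase epsilon subunit POLE2, cyclin E1 and CHAF1B, a subunit of the chromatin assembly factor that deposits histones on new DNA. RFC3 stood at 92.1, 134 and 96.3 CPM at the high dose against 84.8, 78.4 and 88.8 CPM at the low dose (0.34 ± 0.08 SE, adjusted p = 0.00363 with edgeR). PRIM1 stood at 23.0, 26.2 and 23.0 CPM against 20.3, 18.7 and 20.1 CPM (0.28 ± 0.07, adjusted p = 0.00773 with edgeR). CHAF1B stood at 24.0, 23.5 and 23.8 CPM against 21, 20.5 and 19.3 CPM (0.22 ± 0.06, adjusted p = 0.00459 with edgeR). High and low libraries did not overlap for these 3 genes. CCNE1 did not overlap either, at 23.1, 24.6 and 21.4 CPM against 19.1, 18.3 and 20.4 CPM (0.25 ± 0.07, adjusted p = 0.0123 with edgeR).

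Without high-dose replicate 2, the aconite calls of RFC4, POLE2, GINS1, CDC45, RFC3, PRIM1 and CCNE1 were lost and those of CDC6 and CHAF1B were not. RFC4 stood at 26.2, 42.5 and 25.8 CPM against 24.0, 24.3 and 24.9 CPM, and POLE2 at 14.6, 24.1 and 14.8 CPM against 14.0, 12.9 and 14.2 CPM. GINS1 stood at 54.3, 72.0 and 54.6 CPM against 49.8, 48.6 and 52.3 CPM. CDC45 stood at 52.3, 68.9 and 54.5 CPM against 47.6, 50.6 and 53 CPM and was the one call whose groups overlapped. In each of these 4 replicate 2 was the highest by far and the other high-dose libraries lay close to the low dose. Without it the log2 fold change was 0.09 for RFC4, 0.10 for POLE2, 0.11 for GINS1 and 0.08 for CDC45, and none passed (adjusted p from 0.445 to 0.707 with edgeR). RFC3 fell to 0.16 (adjusted p = 0.178), PRIM1 to 0.22 (0.0674) and CCNE1 to 0.20 (0.0771), while CDC6 at 0.23 (0.000393) and CHAF1B at 0.23 (0.00875) still passed.

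Without that library 4 members were called (4.23% of all genes rose): CDC6 and CHAF1B, together with MCM10 and CHAF1A, which had not been called with it. MCM10, a scaffold that helps start the fork, stood at 44.1, 34.8 and 41.7 CPM at the high dose against 35.6, 37.0 and 33.3 CPM, lowest in replicate 2 (0.19 ± 0.07 SE with all libraries, adjusted p = 0.0751 with edgeR; 0.27 without it, adjusted p = 0.00539). CHAF1A, the partner of CHAF1B, stood at 50.4, 39.9 and 49.0 CPM against 41.7, 45.5 and 39.4 CPM (0.14 with all, 0.23 without, adjusted p = 0.0251 with edgeR). CDC6 and CHAF1B were also the 2 calls that held whichever single library of the comparison was left out, with adjusted p up to 0.000928 and 0.0385. Over those 6 fits the count of members called ran from 3 (without low-dose replicate 2, where 3.22% of all genes rose) to 15 (without high-dose replicate 1 or 3, where 11.4% and 10.1% rose), with 5 without low-dose replicate 1 (3.6% rose). Fitting the 2 aconite groups alone gave 0 calls (0.370% of all genes rose), so the calls also rest on the spread shared with the other 17 groups.

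The aconite fold changes were ordered by exon length. Across the 39 members the Spearman rho of the high over low fold change with summed exon length was -0.55 with all libraries and -0.02 without high-dose replicate 2; over all genes tested it was -0.15. The 9 called members had a median exon length of 2.96 kb (2.44 to 5.56 kb) against 4.35 kb for the other 30. The 19 members under 4.18 kb had a median fold change of 0.18 and the 20 longer ones 0.01, which became 0.09 and 0.02 without replicate 2. PCNA has the shortest exons of the members, at 1.47 kb, and stood at 225, 362 and 223 CPM at the aconite high dose against 221, 211 and 244 CPM at the low dose. POLE, the catalytic subunit of the leading-strand polymerase, has the longest, at 16.6 kb, and stood at 171, 105 and 171 CPM against 153, 164 and 144 CPM. Replicate 2 was thus the highest library for the shortest member and the lowest for the longest. Without it the PCNA fold change went from 0.25 to -0.01 and that of POLE from -0.05 to 0.15. Ribosomal protein genes had a median high over low fold change of 0.25 with aconite and of -0.02 without replicate 2. Of the 2 fibroblast markers tested, LUM rose with aconite (1.64 ± 0.863 against 0.784 ± 0.334 CPM, SD, n = 3; log2 0.94, adjusted p = 0.0187 with edgeR), and COL1A1 had a fold change of -0.42 (adjusted p = 0.278). Without replicate 2 neither passed (LUM 0.53, adjusted p = 0.292; COL1A1 -0.14, adjusted p = 0.828 with edgeR). Of the epithelial markers CEACAM5 rose (10.2 ± 1.70 against 5.42 ± 0.383 CPM; log2 0.91, and 0.99 without replicate 2) and VIL1 fell by 0.26 (-0.24 without it). COL1A2, COL3A1 and DCN, further fibroblast genes, did not exceed 0.112 CPM in any library. The part of these shifts in the replication gene result was not tested.

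**Figure D5:**
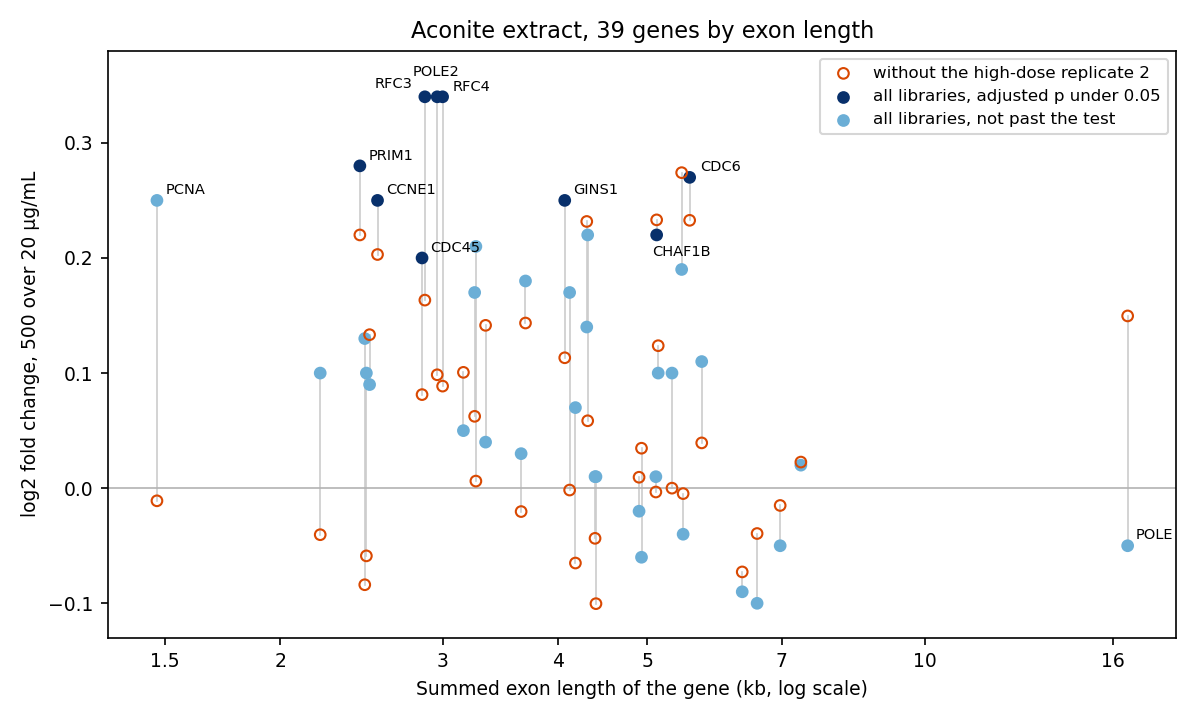
The aconite high over low log2 fold change of 39 genes against summed exon length in kb (log scale), with all 6 libraries (filled, dark where the adjusted p is under 0.05) and without high-dose replicate 2 (open); grey lines join the values of a gene. Most short genes drop without that library, while CDC6 and CHAF1B stay above 0.2.

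The promoters of the 6 members with the smallest adjusted p between high and low dose are printed, all of them called with aconite. Of these genes only CDC6 and CHAF1B kept the call without high-dose replicate 2. The sequences are from RefSeq on GRCh38.p14, the 200 bases before the annotated start, 5′ to 3′ on the strand of the gene, with the motifs found in capitals. CDC6 lies on the plus strand at chr17:40287679-40287878, RFC3 on the plus strand at chr13:33817949-33818148 and CHAF1B on the plus strand at chr21:36385192-36385391. PRIM1 lies on the minus strand at chr12:56752324-56752523, CCNE1 on the plus strand at chr19:29811791-29811990 and GINS1 on the plus strand at chr20:25407473-25407672.
CDC6: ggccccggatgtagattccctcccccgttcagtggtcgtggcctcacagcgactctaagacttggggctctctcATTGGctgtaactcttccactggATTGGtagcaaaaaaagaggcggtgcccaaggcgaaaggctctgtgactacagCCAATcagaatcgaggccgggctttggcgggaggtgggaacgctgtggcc
RFC3: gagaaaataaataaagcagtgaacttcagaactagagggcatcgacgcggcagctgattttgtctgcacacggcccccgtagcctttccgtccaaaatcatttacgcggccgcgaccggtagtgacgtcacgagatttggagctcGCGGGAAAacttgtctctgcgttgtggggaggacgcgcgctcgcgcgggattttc
CHAF1B: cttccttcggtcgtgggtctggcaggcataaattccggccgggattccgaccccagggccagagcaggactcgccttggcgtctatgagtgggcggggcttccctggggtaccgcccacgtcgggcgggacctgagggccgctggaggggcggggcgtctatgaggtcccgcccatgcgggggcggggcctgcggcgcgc
PRIM1: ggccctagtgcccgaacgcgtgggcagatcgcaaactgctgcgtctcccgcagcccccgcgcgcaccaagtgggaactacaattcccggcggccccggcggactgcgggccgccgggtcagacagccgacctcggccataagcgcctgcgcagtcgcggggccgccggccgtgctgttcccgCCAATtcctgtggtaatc
CCNE1: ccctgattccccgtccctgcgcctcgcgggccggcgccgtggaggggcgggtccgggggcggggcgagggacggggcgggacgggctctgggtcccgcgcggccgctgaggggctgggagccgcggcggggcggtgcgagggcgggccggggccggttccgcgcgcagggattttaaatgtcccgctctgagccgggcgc
GINS1: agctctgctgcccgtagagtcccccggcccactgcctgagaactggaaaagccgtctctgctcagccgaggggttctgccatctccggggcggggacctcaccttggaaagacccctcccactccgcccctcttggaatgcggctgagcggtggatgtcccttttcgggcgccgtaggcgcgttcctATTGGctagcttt

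Motifs were searched on both strands: 4 exact E2F motifs (TTTCCCGC, TTTCGCGC, TTTGGCGC and TTTGCCGC), the CCAAT box (CCAAT) and the cell cycle homology region (TTTGAA). The letters of the CCAAT box and the E2F motifs do not contain each other. CDC6 holds 3 CCAAT boxes, starting 126, 103 and 50 bases before the start, of which 2 read ATTGG on this strand. RFC3 holds 1 E2F motif, read as GCGGGAAA, 55 bases before the start. PRIM1 and GINS1 hold 1 CCAAT box each, 18 and 13 bases before the start, the latter read as ATTGG. CHAF1B and CCNE1 hold none of the searched letters in this window. Of the 39 members 35 had a promoter in the table, and 14 of these (40%) held at least 1 of the 4 E2F motifs, against 633 of 27305 promoters in all (2.32%). A CCAAT box stood in 20 of 35 (57.1%) against 28.9% of all promoters, and TTTGAA in 1 of 35, that of RRM1 (2.86%), against 10.5%. Of the 9 members that rose with aconite, RFC3 was the only one with an E2F motif of these letters. A match is a description of the letters, not of binding.

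Banhasasim-tang shared the length pattern of aconite. Its members' fold changes between high and low dose had a rho of -0.70 with exon length and -0.22 without high-dose replicate 2, and its ribosomal protein genes had a median of 0.30, which was 0.07 without it. PCNA stood at 235, 342 and 222 CPM against 219, 207 and 218 CPM (0.31 ± 0.11 SE, adjusted p = 0.15 with edgeR). TYMS, which makes the thymidine nucleotide, stood at 143, 197 and 136 CPM against 133, 124 and 137 CPM (0.27 ± 0.09). E2F1, the transcription factor that drives many S phase genes, stood at 73.6, 95.8 and 66.9 CPM against 64.3, 64.4 and 72.3 CPM (0.23 ± 0.09). Replicate 2 was the highest high-dose library in all 3 genes, and without it the fold change was 0.09 for PCNA, 0.08 for TYMS and 0.07 for E2F1. Leaving out high-dose replicate 3 gave 10 calls in place of 0 (9.47% of all genes rose), leaving out high-dose replicate 1 gave 1 (2.75% rose), and leaving out replicate 2 gave 0 (0% rose). RRM2 had the smallest adjusted p of the members here, at 329, 352 and 326 CPM against 299, 299 and 297 CPM, with no overlap (0.17 ± 0.05, adjusted p = 0.116 with edgeR, 0.0427 with DESeq2). MCM7, of the helicase ring, stood at 429, 450 and 404 CPM against 382, 389 and 393 CPM (0.14 ± 0.05, adjusted p = 0.141 with edgeR). Without replicate 2 these 2 fold changes were 0.13 and 0.10.

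In Yijung-tang, of the same library set, no library stood apart by these measures, but the members' fold changes had a rho of -0.33 with exon length, against -0.24 over all genes. Its ribosomal protein genes had a median of 0.09, with 38 of 40 above 0, and their part in the members' shift was not tested. MCM4 stood at 360, 370 and 371 CPM at the high dose and at 353, 331 and 331 CPM at the low dose (0.12 ± 0.05 SE, adjusted p = 0.703 with edgeR). UHRF1 stood at 107, 104 and 109 CPM against 99.9, 97.9 and 93.1 CPM (0.13 ± 0.04, adjusted p = 0.47 with edgeR). FEN1 stood at 168, 168 and 172 CPM against 156, 150 and 148 CPM (0.16 ± 0.08, adjusted p = 0.833 with edgeR). These 3 genes did not overlap between doses, and none passed. The response of Yijung-tang minus that of Banhasasim-tang had a median of -0.01 over the members. For this difference 0 members passed with edgeR or DESeq2 (0% of all genes passed edgeR). Only ORC1, 1 of 39 members, had an unadjusted p under 0.05, as did 6.44% of all genes. With bupleurum POLA2, a subunit of the priming polymerase, did not overlap between doses, at 66.7, 71.0 and 68.8 CPM against 65.3, 60.7 and 64.6 CPM (0.11 ± 0.05, adjusted p = 1 with edgeR). The bupleurum response minus that of aconite had a median of -0.04, and 0 of 39 differences passed with edgeR or DESeq2. Of all genes 0.789% passed edgeR with a higher and 1.01% with a lower bupleurum response. An unadjusted p under 0.05 was found for 8 members and for 11.9% of all genes. The nearest was PRIM1, at -0.31 (95% interval -0.51 to -0.12, adjusted p = 0.115 with edgeR).

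Against vehicle, members rose at the high dose of 4 extracts, and 0 fell in any of the 18 comparisons, which share the 3 vehicle libraries. At the aconite high dose 15 of 39 rose (8.58% of all genes rose and 7.29% fell), with a median over the members of 0.11. They are the licensing genes ORC1, CDC6, MCM3, MCM6 and MCM10, then CDC45, the clamp loader genes RFC3, RFC4 and RFC5, PRIM1, POLE2, both ribonucleotide reductase genes RRM1 and RRM2, CCNE1 and CHAF1B. RFC3 had the largest fold change, at 92.1, 134 and 96.3 CPM against 77.6, 76.7 and 79.5 CPM in vehicle (0.45 ± 0.08 SE, adjusted p = 7.53e-05 with edgeR). CDC6 had the smallest adjusted p (0.31 ± 0.05, adjusted p = 1.96e-06 with edgeR). PRIM1 stood at 18.5, 17.8 and 19.2 CPM in vehicle (0.37 ± 0.07, adjusted p = 0.000196). RFC5 stood at 45.1, 58.6 and 48.8 CPM against 39.4, 41.5 and 44.0 CPM in vehicle (0.28 ± 0.06, adjusted p = 0.000832 with edgeR), and MCM6 at 128, 178 and 128 CPM against 116, 115 and 121 CPM (0.30 ± 0.07, adjusted p = 0.00151 with edgeR). Aconite replicate 2 was again the highest for RFC3, RFC5 and MCM6.

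Without that replicate MCM6 (log2 0.12), MCM3 (0.11), CDC45 (0.06), RFC4 (0.07), POLE2 (0.17), RRM1 (0.04) and RRM2 (0.05) no longer passed (11 members were called, where 9.14% of all genes rose), and ORC1, CDC6, MCM10, RFC3, RFC5, PRIM1 and CCNE1 passed whichever single library was left out. RRM1 stood at 244, 320 and 249 CPM against 228, 237 and 251 CPM in vehicle, overlapping. ORC1 stood at 37.3, 33.9 and 39 CPM against 28.2, 30.8 and 33.1 CPM (0.26 ± 0.07 SE, adjusted p = 0.00415 with edgeR). Without vehicle replicate 1 the count was 10 (6.56% of all genes rose). The aconite and vehicle groups fitted alone gave 0 calls (0.661% of all genes rose). At the medium dose ORC1 alone rose with aconite (38.3, 35.6 and 39.1 CPM; 0.29 ± 0.07, adjusted p = 0.00383 with edgeR; 2.47% of all genes rose and 2.2% fell), a call lost without vehicle replicate 1. At the low dose 0 members rose (0.698% of all genes rose and 0.91% fell). ORC1 stood at 36.3, 36.1 and 34.2 CPM at the aconite low dose, also above all 3 vehicle libraries. Its aconite high over low log2 fold change was 0.05 (adjusted p = 0.695 with edgeR). The extract and the library set cannot be told apart in its gap to vehicle.

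ORC1 also stood above vehicle at the high dose of the other herbs. With bupleurum it was the 1 member that rose (0.746% of all genes rose and 0.777% fell), at 38, 36.5 and 36.7 CPM (0.27 ± 0.07 SE, adjusted p = 0.0187 with edgeR), a call lost without any of 5 of the 6 libraries. Citrus (0.28 ± 0.07, adjusted p = 0.1 with edgeR) and cimicifuga (35.3, 37.2 and 34.3 CPM; 0.22 ± 0.07, adjusted p = 0.0942 with edgeR) did not pass. In these 2 comparisons 0 members passed with edgeR and DESeq2 called 1 in each. Under edgeR 0.0121% of all genes rose and 0.0121% fell with citrus, and 0.813% rose and 0.522% fell with cimicifuga. An unadjusted p under 0.05 was found for 12 members with citrus (8.68% of all genes) and 3 with cimicifuga (11.8%). All 4 herbs are compared with the same 3 vehicle libraries, of which replicate 1 was the lowest for ORC1. Between high and low dose its log2 fold change was 0.21 with citrus, 0.10 with bupleurum, 0.08 with cimicifuga and 0.05 with aconite. None of these passed with edgeR.

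RRM2 was the only member called against vehicle with both formulas that had replicates. With Banhasasim-tang RRM2 rose at the high dose (329, 352 and 326 CPM against 268, 281 and 289 CPM in vehicle; 0.26 ± 0.05 SE, adjusted p = 0.00189 with edgeR), the call holding without any single library. RFC5 also rose, at 49.9, 50.4 and 46.7 CPM (0.23 ± 0.06, adjusted p = 0.0455 with edgeR), but not without vehicle replicate 1 or 2 or high-dose replicate 1 or 2. These were 2 of 39 members, where 0.807% of all genes rose and 0.406% fell. At the medium dose RRM2 rose alone (327, 303 and 323 CPM; 0.18 ± 0.05, adjusted p = 0.0294 with edgeR; 1.39% of all genes rose and 1.72% fell), a call lost without any of 4 of the 6 libraries. With Yijung-tang RRM2 rose at the high dose (322, 329 and 308 CPM; 0.20 ± 0.05, adjusted p = 0.0339 with edgeR) as did MCM4 (331, 319 and 320 CPM in vehicle; 0.19 ± 0.05, adjusted p = 0.0249 with edgeR), 2 of 39 members, where 0.667% of all genes rose and 0.473% fell. The Yijung-tang call of MCM4 was lost without any of the 6 libraries and that of RRM2 without any of 5. RRM2 stood at 295, 309 and 316 CPM at the Yijung-tang low dose, above all 3 vehicle libraries, and the library set and the formula cannot be told apart.

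In the remaining comparisons with vehicle 0 members passed with edgeR. At the medium dose the members with an unadjusted p under 0.05 numbered 2 with citrus (9.75% of all genes) and 1 with cimicifuga (6.42%). They numbered 8 with bupleurum (17.4% of all genes) and 9 with Yijung-tang (18.7%). DESeq2 called 3 of them with Yijung-tang and 0 with the other 3 extracts. At the low dose such members numbered 4 with citrus (8.9% of all genes), 1 with cimicifuga (8.41%) and 4 with bupleurum (11.2%). They numbered 9 with aconite (13.8% of all genes), 5 with Yijung-tang (18.4%) and 5 with Banhasasim-tang (20.2%). DESeq2 called 0 in each. By adjusted p with edgeR at the medium dose, 0% of all genes rose with citrus. With cimicifuga 0.0121% rose and 0.0182% fell, with bupleurum 0.164% and 0.243%, and with Yijung-tang 0.655% and 0.989%. At the low dose 0.00607% rose with citrus and 0% with cimicifuga, 0.419% rose and 0.382% fell with bupleurum, 0.546% and 0.965% with Yijung-tang, and 1.39% and 1.53% with Banhasasim-tang. Below vehicle, with no call, stood ORC6, the smallest origin recognition subunit, at 31.3, 34.8 and 33.7 CPM with bupleurum low against 43.9, 39.5 and 38.2 CPM (-0.28 ± 0.09 SE, adjusted p = 0.157 with edgeR). RFC2, a clamp loader subunit, stood at 44.4, 46.7 and 45.8 CPM with Banhasasim-tang low against 59.1, 52.0 and 50.6 CPM (-0.24 ± 0.08, adjusted p = 0.0867 with edgeR). GINS2 stood at 33.2, 34.1 and 36.2 CPM with citrus low against 44.9, 37.5 and 37.2 CPM (-0.20 ± 0.10, adjusted p = 0.56 with edgeR). Vehicle replicate 1 was the highest vehicle library for these 3 genes, as it was for PCNA (263 CPM against 221 and 218 CPM).

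Of the textbook S phase genes not yet described across all libraries, MCM2 lay between 182 and 233 CPM over all 60 libraries, MCM5 between 96 and 122 CPM and CDT1 between 39.7 and 63.1 CPM. CCNE2, the second cyclin E gene, stood at 12, 12.4 and 12.8 CPM in vehicle and between 10.5 and 16.7 CPM over all libraries, and its high over low fold change ran from -0.02 to 0.20. E2F1 stood at 83.5, 71.3 and 65.4 CPM in vehicle and between 60.4 and 95.8 CPM over all libraries. TYMS ran from 124 to 202 CPM, and its 2 highest values were the aconite and Banhasasim-tang replicates 2 (202 and 197 CPM). The catalytic polymerase genes POLA1 and POLE had a fold change above 0 in 2 of 6 extracts, the fewest of the members. By contrast 13 members were above 0 in all 6 (7.24% of all genes were) and 17 in 5 (13.2%). These counts include high-dose replicate 2 of aconite and Banhasasim-tang. Without it the aconite fold change was 0.15 for POLE and -0.07 for POLA1. At the Banhasasim-tang high dose POLE stood at 157, 82.6 and 160 CPM and POLA1 at 38.9, 27.6 and 41.4 CPM, lowest in replicate 2.

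Lists of genes around the members were counted the same way with aconite, where 5.81% of all genes rose and 5.04% fell between doses and 8.58% rose and 7.29% fell against vehicle. Of 34 further replisome genes, 3 rose and 0 fell between doses, and 9 rose and 1 fell against vehicle. Without high-dose replicate 2 these counts were 1 and 0 between doses and 5 and 4 against vehicle. TIPIN, which stabilises paused forks, had the smallest adjusted p between doses (21.2 ± 6.58 CPM against 14.8 ± 1.02 SD, n = 3; log2 0.48 ± 0.12 SE, adjusted p = 0.00577 with edgeR), followed by DSCC1, of an alternative clamp loader, and DBF4, the activator of the kinase CDC7. None of these 3 passed without replicate 2 (TIPIN 0.24, DSCC1 0.12 and DBF4 0.09, adjusted p from 0.208 to 0.542 with edgeR). Of 26 genes of nucleotide supply, 4 rose and 1 fell between doses, and 0 rose and 1 fell without that library. CTPS1, which makes CTP, rose (0.23 ± 0.05, adjusted p = 0.00318 with edgeR; 0.12 and 0.119 without it). SAMHD1, which degrades deoxynucleotides, fell by 0.48 on the log2 scale (adjusted p = 7.86e-05 with edgeR; -0.37 and 0.00245 without it). Of 18 tested histone supply genes 2 rose and 2 fell (1 and 2 without it), and the histone genes H2BC21 and H2AC6 were the falls (-0.64 and -0.50, and -0.56 and -0.70 without it). Most replication-dependent histone RNAs lack a poly(A) tail, and libraries were made for mRNA.

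Of 26 fork repair genes, 1 rose between aconite doses (PALB2, 0.25 ± 0.07 SE, adjusted p = 0.0123 with edgeR) and 12 rose against vehicle, with a median of 0.22. Without replicate 2 there were 3 between doses and 12 against vehicle, with a median of 0.20. The fork repair median against vehicle was also above 0 at the high dose of the other extracts, with 0 calls in each. It was 0.17 with citrus, 0.16 with Yijung-tang, 0.13 with bupleurum, 0.11 with cimicifuga and 0.05 with Banhasasim-tang. These comparisons share the vehicle libraries, and the library set cannot be told apart from the extract. FANCG had the smallest adjusted p against vehicle (0.35 ± 0.07, adjusted p = 0.00015 with edgeR; 0.28 and 0.00361 without replicate 2). Of 36 mitosis genes 1 rose between aconite doses (NUF2, 0.45) and 6 rose against vehicle. NUF2 did not pass without replicate 2 (0.23, adjusted p = 0.0948 with edgeR), and 2 mitosis genes then rose and 2 fell against vehicle. Among 30 tested regulators of the G1 to S step, 4 rose and 1 fell between aconite doses, and 3 rose and 1 fell without that library. CDKN1A, the p21 inhibitor of cyclin-dependent kinases, rose with aconite (23.3 ± 1.61 CPM at the high dose against 19.1 ± 1.82 SD, n = 3; 0.29 ± 0.08 SE, adjusted p = 0.0112 with edgeR; 0.31 and 0.0108 without it). TFDP2, a partner of E2F factors, fell by 0.39 (-0.30 without it). Of 21 p53 targets 3 rose and 3 fell (2 and 3 without it), with SESN2 up by 1.02 and BTG2 and SESN1 at -1.10 and -0.65, which were 1.14, -1.04 and -0.76 without it. With citrus the 1 call of these lists between doses was CDC25A, the phosphatase that activates CDK2 (44.7 ± 0.815 CPM against 37.4 ± 1.92 SD, n = 3; 0.25 ± 0.05, adjusted p = 0.0299 with edgeR). With citrus 25 of 26 fork repair genes and 34 of 36 mitosis genes lay above 0 between doses, with medians of 0.09 and 0.05 against 0.12 for the members. The replisome gene CHTF18 stood above vehicle at the high dose of bupleurum, aconite, Yijung-tang and Banhasasim-tang (log2 0.35 to 0.40), comparisons that share the vehicle libraries.

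Bojungikgi-tang had 1 library per dose and no replicate check. Its log2 ratio of CPM + 1, high over low dose, lay above 0 for 32 of 39 members with a median of 0.07, where 48.6% of all genes lay above 0. The group's median against the vehicle mean was 0.09 at the high, 0.03 at the medium and 0.00 at the low dose. CDC6 stood at 83.9, 83.4 and 75.0 CPM and RRM2 at 327, 312 and 301 CPM at the high, medium and low dose. The highest ratios of high over low were in GINS1 (0.20), POLE2 (0.18) and ORC1 (0.18), and the lowest in CCNE2 (-0.13). For 0 members did the ratio reach 0.5 in either direction, which 2.84% of all genes did.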

How the data were processed

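The deposited table holds estimated counts per gene, RSEM expected counts made by the authors. GRCh38 was the build, per the submitters' processing notes, which name RSEM 1.3.3, STAR 2.7.3a, FastQC 0.11.9 and Trim Galore 0.6.5 without their roles. For the annotation and the counting options, the sources used here give nothing. Per the labels' protocols the libraries were strand-marking and read as pairs. Of 270 columns 60 matched the labels and 210 were not used. Before rounding to whole counts 8.68% of values were not whole.

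Counts were filtered with filterByExpr, scaled by TMM and fitted with the edgeR quasi-likelihood model (edgeR 4.0.16, R 4.3.3) to the 57 libraries of the 19 groups with replicates, so that groups share the spread (biological coefficient of variation 8.04%). P-values were adjusted by Benjamini-Hochberg over 16484 genes within each of 27 comparisons, threshold 0.05. Standard errors were derived from the F statistic, and 95% intervals use the normal approximation. Fold changes against vehicle are changes between library sets too. Alternatives were RLE size factors, no filter, DESeq2 1.42.0, compared groups alone, a replicate block, each library left out, 4 libraries left out together and, added after seeing the data, a batch term read from RN7SL2. The fit was tested on simulated data.

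The members and gene lists were chosen with earlier results of these data known. By rule any member could be named, with values by library for members past the test between doses, for the 5 with the smallest adjusted p in each comparison with vehicle and for 10 textbook S phase genes, and up to 3 called genes of each surrounding list. Not all of these are printed, and CDC6 as a recurring gene, the members shown for citrus, Yijung-tang, Banhasasim-tang and bupleurum between doses, MCM10, CHAF1A, POLE and the marker genes were picked after their values were seen. Promoters are of the 6 members with the smallest adjusted p between doses. Exon lengths came from GENCODE release 29. Promoters came from RefSeq (GRCh38.p14).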

Additional observations from a re-analysis of the deposited data

How the results depend on the processing

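The count of members called stayed within 1.5 times of its value in 263 refits and moved further in 54, while the count of members above 0 between doses stayed within it in all 74. In most comparisons 0 members were called in the main fit, and 0 that stays 0 is within this bound. A count near 39 can hardly leave the bound, and the aconite fall from 32 to 25 above 0 lies within it. Staying within the bound is thus a weak check. With a replicate block aconite high against low gave 8 calls in place of 9, and the block changed no other count. No comparison had every same-numbered pair of libraries deviating together (lowest r per comparison at most 0.06), so the numbers were not taken as pairs. Without the filter on low counts Banhasasim-tang high against low gave 2 calls, and against vehicle citrus high gave 1, bupleurum low 1, aconite medium 2, aconite low 1, Yijung-tang high 0, Banhasasim-tang high 1 and Banhasasim-tang medium 0. DESeq2 gave 2 for citrus and 1 for Banhasasim-tang high against low, and against vehicle citrus high 1, cimicifuga high 1, bupleurum high 2, aconite medium 3 and Yijung-tang medium 3. Compared groups alone gave 0 for aconite high against low and for aconite, bupleurum, Yijung-tang and Banhasasim-tang high against vehicle. Without the 4 libraries that stood apart citrus high against low gave 6, citrus high against vehicle 2 and bupleurum high against vehicle 2. Leaving out 1 library at a time gave 3 to 15 calls for aconite high against low and 0 to 10 for Banhasasim-tang. It gave 10 to 16 for aconite high against vehicle. Against vehicle it gave 0 to 1 for cimicifuga high, bupleurum high, aconite medium, aconite low, Yijung-tang medium and Banhasasim-tang medium, 0 to 2 for Yijung-tang high and Banhasasim-tang low, and 1 to 2 for Banhasasim-tang high. It gave 0 to 2 for the difference between bupleurum and aconite. The share of all genes called also moved between refits and is not given beside these counts. Between aconite doses 3.22% to 11.4% of all genes rose as 1 library was left out. With Banhasasim-tang 0% rose without high-dose replicate 2 and 9.47% without high-dose replicate 3. A count that moved is therefore not a result about the members alone. Where a library was left out, fewer samples entered; in the other refits the cause was not tested. A batch term read from RN7SL2 left 0 calls for citrus and for cimicifuga between doses, with 39 and 24 members above 0. Of the called members, 0 reversed in any refit. Depth was 10.35 to 40.05 M, and every member had counts in every library.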
